A study of Mus musculus with 16 samples.

Results

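The clustered histone genes encode the proteins that package DNA, and most of them are transcribed while DNA is being copied. A nucleosome holds histones H2A, H2B, H3 and H4, and a linker histone, H1, binds where DNA enters and leaves it. Most clustered histone genes have no intron, and most of their mRNAs end in a short stem-loop in place of a poly(A) tail. The stem-loop is bound by the protein of the Slbp gene, and the mRNA is degraded when DNA synthesis stops. Some clustered genes can also give longer, polyadenylated mRNAs, which have been described in differentiated cells.

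The genes described here are those with a GENCODE M21 symbol that starts with Hist1h, Hist2h, Hist3h or Hist4 and with a protein-coding biotype. They number 67 of the 54532 gene identifiers counted, and 3 further symbols of this form are annotated with another biotype and were left out. By protein they comprise 6 H1, 18 H2A, 18 H2B, 12 H3 and 13 H4 genes. By position 54 lie in the Hist1 cluster (GRCm38 chromosome 13, 21715763 to 23934851), 10 in Hist2 (chromosome 3, 96219865 to 96270132), 2 in Hist3 (chromosome 11, 58948920 to 58956830) and 1 in Hist4 (chromosome 6, 136801553 to 136804415).

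The data are 16 RNA sequencing libraries of mouse macrophages, which were grown from bone marrow over 7 days in M-CSF (20 ng/mL), the growth factor of this lineage. The cells then spent 24 h without or with tumor-conditioned medium (TCM), a 70% share of medium taken from YUMM1.7 mouse melanoma cells. The groups were TRAP1 KO TCM (n = 4), WT TCM (n = 3) and WT naive (n = 3, no TCM), and a second line of mice gave JMJD3 cKO TCM (n = 3) and JMJD3 WT TCM (n = 3). TRAP1 is the HSP90 chaperone of mitochondria. JMJD3, encoded by Kdm6b, is an enzyme that demethylates a lysine of histone H3. No source used here gives the Trap1 knockout allele, the Cre driver and deleted exons of the JMJD3 conditional allele, the mouse strain or the age. Whether replicates came from separate mice or cultures is not stated either, so the p-values cover only how far single libraries varied, and part of that may be technical.

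Libraries held 15361604 to 22426820 counts. Trap1 was at 0.0377 ± 0.0252 CPM (gene counts divided by scaled library totals, ± SD) in TRAP1 KO TCM and 67.7 ± 5.51 CPM in WT TCM. Kdm6b was at 25.6 ± 1.02 CPM in the libraries labelled JMJD3 cKO and 25.1 ± 1.69 CPM in JMJD3 WT TCM. Counts of the full gene cannot test for a deletion within it. The 8 macrophage markers summed to between 12805 and 26809 CPM in every library. Xist was at 918 CPM in JMJD3 cKO TCM and 844 CPM in JMJD3 WT TCM and at most 0.0143 CPM in the mean of each other group, while the Y-linked gene Ddx3y was at 0 in the JMJD3 line and at 85.1 to 87.1 CPM elsewhere. Line, sex and set of libraries therefore cannot be told apart, and each knockout is compared within its own set.

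The stem-loop was found in the annotated GENCODE M21 transcripts of 44 of the 67 histone genes and of 4 of 21834 other coding genes (0.0183%). It is shown because 3 of the 5 most abundant members, Hist1h1c, Hist3h2a and Hist1h4i, share it with many scarce ones. Stems are in capitals and the loop in lower case, as DNA letters of the sense strand.
Hist1h1c (also 25 other H1, H2A, H2B and H3 genes): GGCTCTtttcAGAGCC
Hist1h4c (also 6 other H4 genes): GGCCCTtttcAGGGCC
Hist1h4i (also Hist2h4): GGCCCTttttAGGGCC
The first form was shared across H1, H2A, H2B and H3 genes, and the other forms shown were those of H4 genes.

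RefSeq promoter windows of GRCm38.p6, cut to the 250 bases before the gene start, were matched to 61 members. The 6 members without one were Hist1h2ap, Hist1h2bc, Hist2h2be, Hist1h3a, Hist1h3f and Hist2h4. CCAAT, the box bound by the factor NF-Y, was found on either strand in 50 of 61 windows (82.0%) and in 33.8% of the other 32789 promoters. It stood in all 6 H1, 17 H2A and 16 H2B windows, in 8 of 10 H3 windows and in 3 of 12 H4 windows. The octamer ATTTGCAT, a site of the factor OCT1, was in 7 H2A and 6 H2B windows and in none of the other classes (21.3% of members, 1.56% of other promoters). The box AAACACA, known from H1 promoters, was in 5 of 6 H1 windows and in 6.23% of other promoters, and TATAAA was in 29 windows (47.5%) and in 12.3% of others. Windows of H2A and H2B genes that lie head to head can overlap, as those of Hist1h2ag and Hist1h2bj do. The same box can then count for both genes. The windows of Hist1h2bq and Hist1h2br hold the same letters. The window counts are thus not counts of separate stretches of DNA. A match is a description of letters and does not show that a factor was bound.

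The windows below belong to the most abundant H1 and H2A genes and to 2 H2A genes that face an abundant H2B gene. Capitals mark CCAAT boxes, the TATAAA motif, the octamer and the AAACACA box on either strand. Runs that read ATTGG, or the octamer reversed as ATGCAAAT, are matches on the opposite strand, and the letters run 5′ to 3′ toward the gene. The positions are chr13:23738557-23738806 on the plus strand for Hist1h1c, chr11:58954435-58954684 on the plus strand for Hist3h2a, chr13:23683960-23684209 on the minus strand for Hist1h2ac and chr3:96220881-96221130 on the minus strand for Hist2h2ac.
Hist1h1c: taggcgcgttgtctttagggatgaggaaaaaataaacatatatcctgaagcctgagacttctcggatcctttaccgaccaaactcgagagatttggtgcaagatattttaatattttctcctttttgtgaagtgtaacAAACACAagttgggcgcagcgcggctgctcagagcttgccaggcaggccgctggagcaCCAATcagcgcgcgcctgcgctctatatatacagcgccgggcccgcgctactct
Hist3h2a: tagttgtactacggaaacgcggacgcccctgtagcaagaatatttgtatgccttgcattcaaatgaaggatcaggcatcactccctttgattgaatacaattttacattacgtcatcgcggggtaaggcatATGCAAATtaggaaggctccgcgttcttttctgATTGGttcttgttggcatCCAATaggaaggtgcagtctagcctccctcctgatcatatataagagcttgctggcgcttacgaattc
Hist1h2ac: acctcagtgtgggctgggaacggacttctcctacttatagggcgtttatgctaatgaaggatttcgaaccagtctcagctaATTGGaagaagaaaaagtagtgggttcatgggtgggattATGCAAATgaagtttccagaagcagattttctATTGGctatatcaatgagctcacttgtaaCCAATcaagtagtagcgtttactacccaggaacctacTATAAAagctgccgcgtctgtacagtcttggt
Hist2h2ac: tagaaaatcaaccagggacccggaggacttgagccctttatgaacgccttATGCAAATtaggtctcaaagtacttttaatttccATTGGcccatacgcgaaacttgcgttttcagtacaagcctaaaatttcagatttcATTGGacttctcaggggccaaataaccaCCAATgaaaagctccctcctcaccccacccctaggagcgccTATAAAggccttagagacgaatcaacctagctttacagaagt
The Hist1h2ac window reaches across the annotated start of Hist1h2bc at 23684199, and that of Hist2h2ac reaches across the start of Hist2h2be at 96221119. Both hold an octamer, TATAAA and CCAAT boxes. The Hist3h2a window holds an octamer and CCAAT boxes with no TATAAA, and the Hist1h1c window holds AAACACA and a CCAAT box.

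Histone genes gave 28283 counts in all libraries together, 0.0055 to 0.0141% of a library. Of the 67 members 58 had at least 1 count and 9 had none in any library, which allows up to 0.00987 CPM each (3 counts over all libraries, counting error only). The 9 were Hist1h2aa, Hist1h2ag, Hist1h2ap, Hist2h2aa1, Hist2h2aa2, Hist1h2ba, Hist2h2bb, Hist2h3b and Hist2h3c1. Among them Hist2h2aa1, Hist2h2bb and Hist2h3c1 overlap another annotated gene on the same strand. The limit does not cover reads that fit several genes and may have been left uncounted. A further 25 averaged under 1 count per library and 26 averaged 1 to 10. Only 7 reached a mean of 10 counts, and only 12 passed the filter on low counts in any comparison.

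The 5 most abundant members held 90.2 to 94.9% of the histone counts in every library. They were the linker histone gene Hist1h1c (mean of 16 libraries 39.8 CPM), the H2B genes Hist1h2bc (24.5 CPM) and Hist2h2be (12.5 CPM), the H2A gene Hist3h2a (8.05 CPM) and the H4 gene Hist1h4i (3.21 CPM). Per kilobase of exon Hist1h1c was at 25.5 CPM and Hist1h2bc at 21.2, followed by Hist2h2be at 4.76, Hist1h4i at 4.42 and Hist3h2a at 3.75. No H3 gene stood at these levels. Hist2h3c2, the highest H3 gene, was at 0.806 CPM per kilobase and Hist1h2bg, the next H2B gene, at 1.75.

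**Figure D1:**
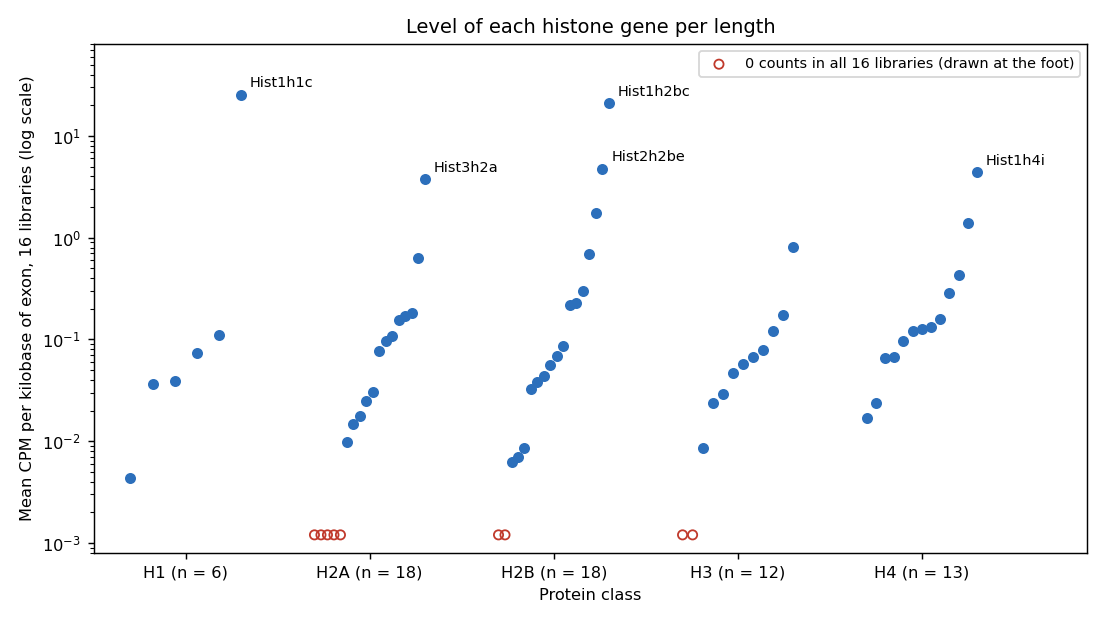
Mean level of each histone gene over 16 libraries, in CPM per kilobase of exon on a log axis, by protein class, with members in rising order and open red circles for the 9 genes at 0. One gene of H1, 1 of H2A, 2 of H2B and 1 of H4 stand above the rest of their class, with Hist1h1c at 25.5 and Hist1h2bc at 21.2, while the highest H3 gene is at 0.806.

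The 55 members that are not named one by one below gave 1008 counts in all, and the highest of them were Hist1h4k, an H4 gene, with 129 counts and Hist1h2be, an H2B gene, with 114. Among the H1 genes, Hist1h1b had 17 counts in all libraries together, Hist1h1a 9 and the testis form Hist1h1t 1. All 50-base stretches of these 3 transcripts are found in no other annotated gene, and how their reads were assigned was not tested. Hist1h1d and Hist1h1e, further linker histones, had 83 and 64 counts.

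Members differ in how much sequence they share with other genes. The median member had 50.5% of its 50-base stretches to itself, and the 9 members at 0 had a median of 20.3% with a range of 0 to 97.7%. The 5 abundant members had 68.5 to 100%. Of the 35 members with over 50% of their own sequence, 29 averaged under 1 CPM. No source used here says how the authors counted reads that fit several genes, so the level of each near-identical member is uncertain.

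The abundant members had long annotated transcripts. Their lengths were 727 to 2620 bases, against a median of 529 bases for the other 62, of which 14 were over 1000 bases and stood between 0 and 0.822 CPM. The transcript of Hist1h1c runs 840 bases past its stem-loop, that of Hist3h2a 1643 and that of Hist1h4i 330. The annotated transcripts of Hist1h2bc and Hist2h2be hold no stem-loop. In all, 18 members have a transcript that runs over 200 bases past the stem-loop and held 56.5% of the histone counts. The 23 without a stem-loop held 40.3%, and the 26 that end within 200 bases of it held 3.24%. These shares rest largely on the abundant members. Apart from Hist1h2bc and Hist2h2be, the genes without a stem-loop held 284 counts, while the 26 held 917. Median levels were 0.203 CPM for the 18, 0.0188 for the 23 and 0.0498 for the 26. A long transcript did not go with a high level in each case, since Hist1h1d, with 4884 bases past the stem-loop, averaged 0.270 CPM and Hist4h4, with 2445, averaged 0.0485. The files give no coverage along a transcript, so which end the counted reads came from was not tested.

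**Figure D2:**
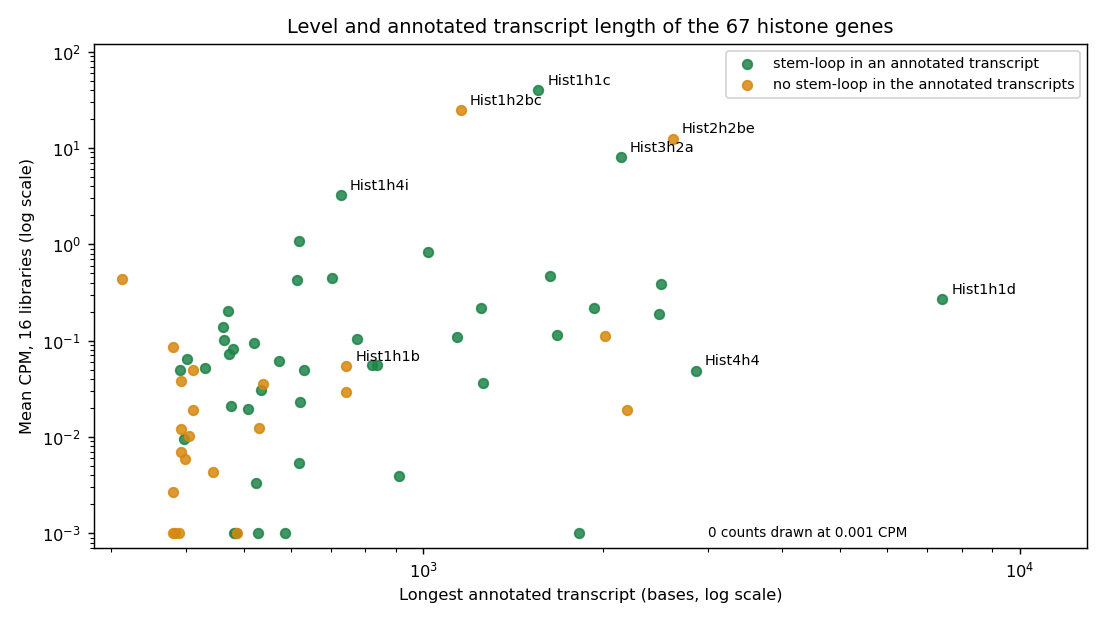
Mean level over 16 libraries in CPM against the longest annotated transcript in bases, both on log axes, for the 67 histone genes, in green with and in orange without a stem-loop in an annotated transcript. The 5 abundant genes lie between 727 and 2620 bases, while other long genes such as Hist1h1d and Hist4h4 stay under 1 CPM.

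The H2A and H2B genes often lie head to head, and 12 such pairs have starts within 400 bases. Members of a pair were counted at very different levels where one of them was abundant. Hist1h2bc had 7403 counts over the 16 libraries and Hist1h2ac, whose start lies 250 bases away, had 57. Hist2h2be had 3702 counts and Hist2h2ac, 238 bases away, had 30. The Hist1h2bg and Hist1h2ae pair had 327 and 136 counts, and the Hist1h2ba and Hist1h2aa pair had none.

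Summed over the 67 genes, histone RNA was at 56.9 ± 3.02 CPM in TRAP1 KO TCM, 76.5 ± 1.86 CPM in WT TCM and 85.6 ± 2.24 CPM in WT naive (SD, n = 4, 3 and 3). In the JMJD3 line it was at 118 ± 2.87 CPM in JMJD3 cKO TCM and 151 ± 2.68 CPM in JMJD3 WT TCM (SD, n = 3 each). No library of one group overlapped those of another in this sum. The share of counts from mitochondrial genes ran in the opposite order, also without overlap, at 1.42 to 1.45% in TRAP1 KO TCM, 1.25 to 1.28% in WT TCM and 1.15 to 1.18% in WT naive, and at 0.821 to 0.865% in JMJD3 cKO TCM and 0.744 to 0.786% in JMJD3 WT TCM. Its part in the histone sum was not tested. In bulk RNA, fewer cells that express a gene and less of its RNA per cell cannot be told apart. The sum mostly follows the 5 abundant genes, and the other 62 summed to 5.28 ± 0.510, 5.87 ± 0.692 and 7.5 ± 0.906 CPM in TRAP1 KO TCM, WT TCM and WT naive and to 8.05 ± 1.13 and 9.18 ± 1.5 CPM in JMJD3 cKO TCM and JMJD3 WT TCM.

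**Figure D3:**
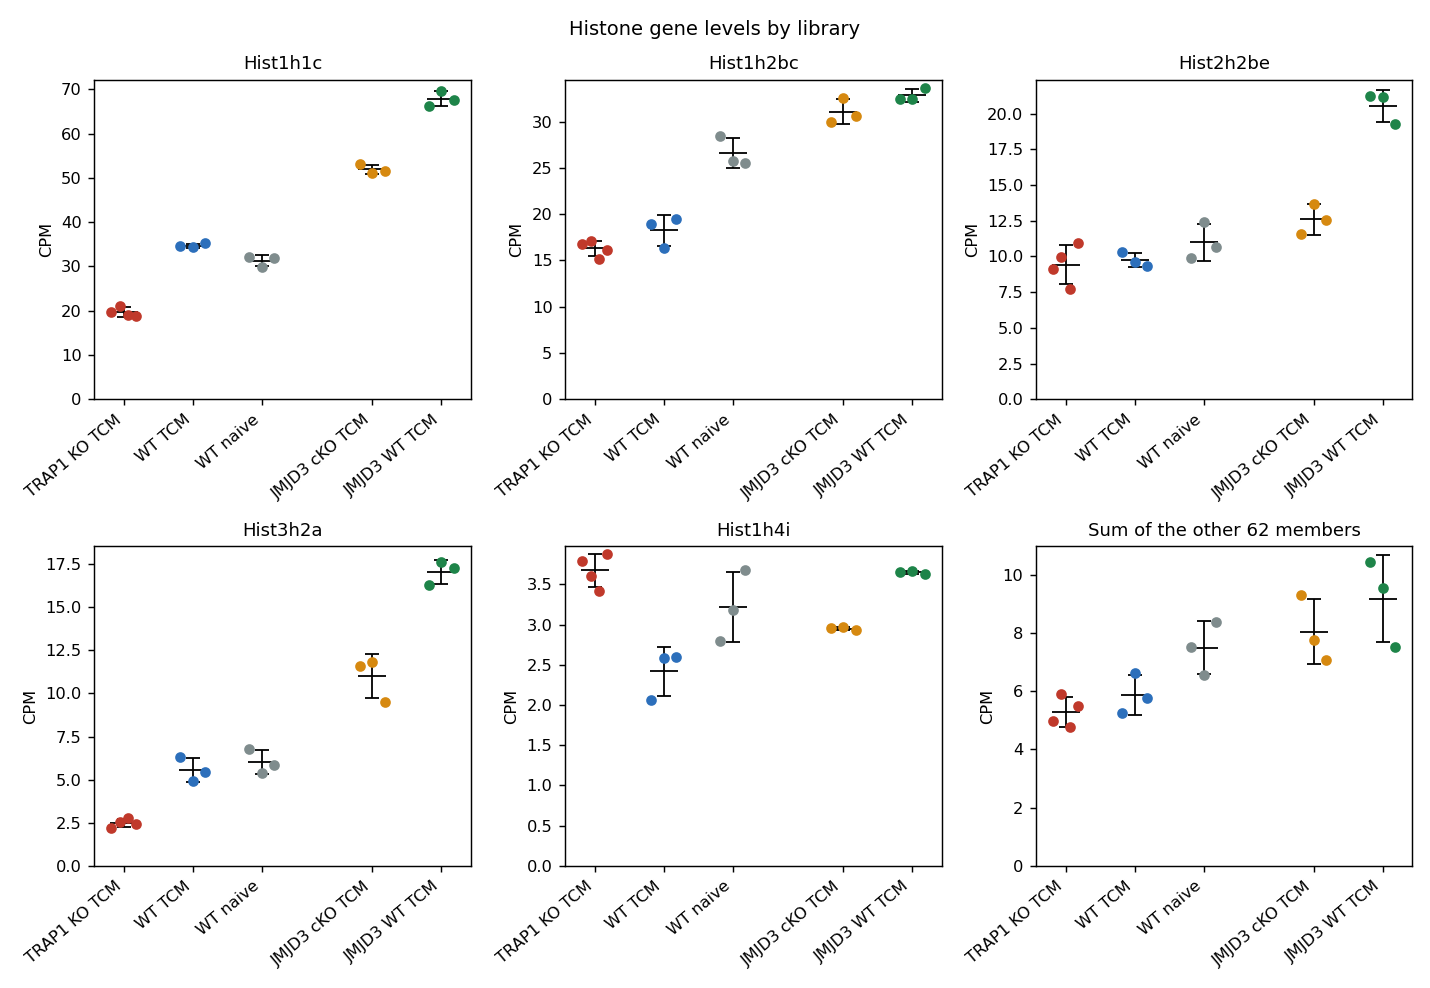
CPM of the 5 most abundant histone genes and the summed CPM of the other 62, by library (points), with mean and SD per group (bars, n = 4 for TRAP1 KO TCM and 3 for the others). Hist1h1c and Hist3h2a are lowest in all 4 TRAP1 KO TCM libraries and highest in JMJD3 WT TCM, while Hist1h4i is higher in TRAP1 KO TCM than in WT TCM.

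Genes were tested with edgeR's quasi-likelihood test and called at a Benjamini-Hochberg adjusted p under 0.05 over all genes tested. In TRAP1 KO TCM against WT TCM 8 members could be tested, of which 1 rose and 2 fell, while 21.2% of all 14078 genes tested rose and 21% fell. In WT TCM against WT naive 1 of 8 rose and 1 fell, with 21.6% of genes higher and 20.6% lower. Against WT naive, TRAP1 KO TCM had 0 of 8 members higher and 3 lower, with 27.7% of genes higher and 28.8% lower. In JMJD3 cKO TCM against JMJD3 WT TCM 0 of 9 rose and 3 fell, with 17.3% of 13476 genes higher and 17.8% lower (without TMM scaling 3932 and 1571 genes in place of 2326 and 2402, with the same member counts). These counts are small and lie near the shares of all genes, and a member that passed the filter is not a sample of the class.

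Between the wild types of the lines most tested members differed. In JMJD3 WT TCM against WT TCM 9 of 12 members tested rose and 0 fell, while 30% of 14545 genes rose and 31.3% fell. Of these 9, Hist3h2ba and Hist2h4 passed the filter only through the JMJD3 line, where they were high, so their calls say nothing further. Of the 8 members that also passed it among the TRAP1 KO TCM, WT TCM and WT naive libraries, 7 rose. A fit of the compared groups alone called 8 of 9 higher and 0 lower, and the discounted Hist3h2ba was again among the 8. Without TMM scaling the split over all genes was 2997 higher and 6454 lower in place of 4366 and 4554, the median of all genes moved to -0.17, and 9 members still rose with 0 lower. The 3 others were Hist1h2ae, Hist1h2be and Hist1h4k, with log2 fold changes of -0.40, 0.27 and 0.09. In the difference between the TRAP1 effect and the JMJD3 effect 2 of 12 were higher and 3 lower. Of all genes 18.4% were higher and 19.5% lower (2680 and 2839 genes, or 2074 and 3714 without TMM scaling). Among the 3 lower was Hist3h2ba, which passed the filter only through the JMJD3 line, and its call was lost in 14 of 22 alternatives.

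**Figure D4:**
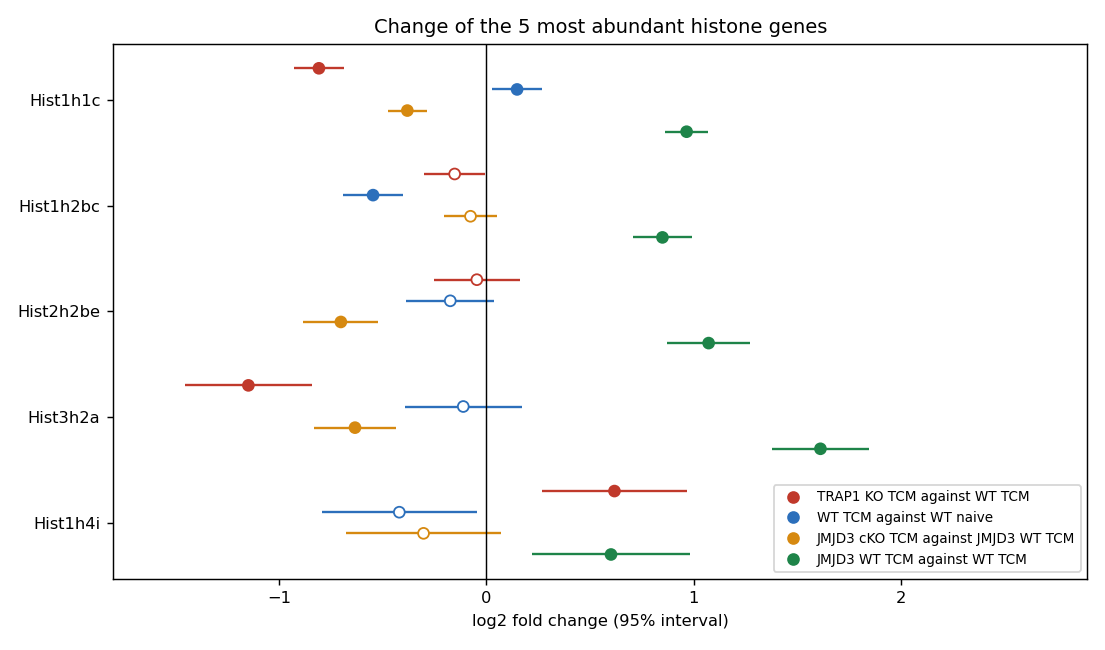
Log2 fold changes of the 5 most abundant histone genes with 95% intervals in 4 comparisons, with filled points for an adjusted p under 0.05 and open points for the rest. All but Hist1h4i lie below 0 in both knockouts, and only Hist1h1c and Hist3h2a are called lower in both. All 5 genes lie above 0 in JMJD3 WT TCM against WT TCM.

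Hist1h1c (ENSMUSG00000036181, chromosome 13, 23738808 to 23740367, plus strand) encodes a linker histone. It was at 19.8, 21.1, 19.1 and 18.8 CPM in TRAP1 KO TCM, at 34.6, 34.3 and 35.2 CPM in WT TCM and at 32.1, 29.8 and 32.0 CPM in WT naive. The TRAP1 KO libraries lay below all others. The log2 fold change in TRAP1 KO TCM against WT TCM was -0.81 (SE 0.06, adjusted p = 2.3e-21) and against WT naive -0.66 (adjusted p = 2.4e-17). Under TCM the wild type rose by a small step (0.15, SE 0.06, adjusted p = 0.038). That call was lost in 7 of 17 alternatives, among them DESeq2 (adjusted p = 0.0502) and the fits without any one WT TCM replicate or without WT naive replicate 2 (adjusted p = 0.181).

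With JMJD3 loss Hist1h1c was at 53.1, 51.0 and 51.6 CPM in JMJD3 cKO TCM and at 66.3, 69.6 and 67.6 CPM in JMJD3 WT TCM, with no overlap. It fell in the knockout (log2 fold change -0.38, SE 0.05, adjusted p = 9.5e-09), and the wild type of this line stood above WT TCM (0.97, SE 0.05, adjusted p = 1.3e-30). The fall with TRAP1 loss was the greater of the 2 (difference -0.43, SE 0.08, adjusted p = 1.2e-06). The other H1 gene described by library, Hist1h1d, had 1 to 6 counts in the TRAP1 KO TCM libraries, 2 to 10 in WT TCM and 4 to 15 in WT naive. It had 7 to 8 counts in JMJD3 cKO TCM and 2 to 5 in JMJD3 WT TCM, and it did not pass the filter in any comparison.

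Hist3h2a (ENSMUSG00000078851, chromosome 11, 58954685 to 58956830, plus strand) encodes an H2A protein from the small Hist3 cluster. It was at 2.19, 2.56, 2.78 and 2.43 CPM in TRAP1 KO TCM, at 6.30, 4.91 and 5.45 CPM in WT TCM and at 6.80, 5.41 and 5.84 CPM in WT naive. TRAP1 KO TCM lay below both wild-type groups in every library, with a log2 fold change of -1.15 against WT TCM (SE 0.15, adjusted p = 6.5e-10) and -1.26 against WT naive (SE 0.15, adjusted p = 2.5e-12). WT TCM and WT naive overlapped (-0.11, 95% interval -0.39 to 0.17, adjusted p = 0.57).

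In JMJD3 cKO TCM Hist3h2a was at 11.6, 11.8 and 9.51 CPM, against 16.3, 17.6 and 17.3 CPM in JMJD3 WT TCM. It fell in this knockout too (log2 fold change -0.63, SE 0.10, adjusted p = 1.3e-06), and of the 5 abundant genes it had the largest difference between the wild types (1.61, SE 0.12, adjusted p = 1.8e-22). The TRAP1 effect was more negative than the JMJD3 effect by 0.52 (SE 0.18, adjusted p = 0.016), which was no longer called without WT TCM replicate 1 (adjusted p = 0.0925). The gene lies inside the span of Trim17, a ubiquitin ligase gene on the same strand. Trim17 was at 0.268 ± 0.0151 CPM in TRAP1 KO TCM, 0.520 ± 0.230 in WT TCM, 0.795 ± 0.202 in WT naive, 0.964 ± 0.311 in JMJD3 cKO TCM and 1.02 ± 0.277 in JMJD3 WT TCM, per group far below Hist3h2a. Whether any reads were shared between them was not tested.

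Hist1h2ae, an H2A gene of the Hist1 cluster, had 9 to 12 counts per library in TRAP1 KO TCM, 3 to 14 in WT TCM and 7 to 13 in WT naive, and 6 to 10 in JMJD3 cKO TCM and 3 to 11 in JMJD3 WT TCM. All groups overlapped. Its log2 fold change in TRAP1 KO TCM against WT TCM was 0.11 with a 95% interval of -0.78 to 1.0, so changes of either sign lay within the interval at this depth.

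Hist1h2bc (ENSMUSG00000018102, chromosome 13, 23684199 to 23692908, plus strand) encodes an H2B protein, and its single annotated transcript of 1156 bases is spliced over that span. It was at 16.7, 17.1, 15.2 and 16.2 CPM in TRAP1 KO TCM, at 18.9, 16.3 and 19.5 CPM in WT TCM and at 28.4, 25.8 and 25.6 CPM in WT naive. All 7 TCM libraries of this set, of either genotype, lay below the naive ones. The log2 fold change in WT TCM against WT naive was -0.55 (SE 0.07, adjusted p = 6.9e-10) and in TRAP1 KO TCM against WT naive -0.70 (SE 0.07, adjusted p = 1.1e-15).

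With TRAP1 loss Hist1h2bc did not pass the threshold (log2 fold change -0.15, 95% interval -0.30 to -0.0044, adjusted p = 0.093), and without WT TCM replicate 2 it did (-0.23, adjusted p = 0.021). It was at 30.0, 32.6 and 30.6 CPM in JMJD3 cKO TCM and at 32.4, 32.5 and 33.6 CPM in JMJD3 WT TCM, groups that overlapped (-0.08, 95% interval -0.20 to 0.05, adjusted p = 0.38). The JMJD3 WT TCM level was above that of WT TCM (0.85, SE 0.07, adjusted p = 6.3e-19).

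Hist2h2be (ENSMUSG00000068854, chromosome 3, 96221119 to 96223738, plus strand) encodes an H2B protein, and none of its 50-base stretches is shared with another gene. It was at 9.09, 9.93, 7.74 and 10.9 CPM in TRAP1 KO TCM, at 10.3, 9.65 and 9.31 CPM in WT TCM and at 9.88, 12.4 and 10.7 CPM in WT naive. These groups overlapped, and the log2 fold change in TRAP1 KO TCM against WT TCM was -0.05 (95% interval -0.25 to 0.16, adjusted p = 0.77). Against WT naive, TRAP1 KO TCM just missed the threshold (-0.22, SE 0.10, adjusted p = 0.051). The value was called in 6 of 17 alternatives, among them the fit of all 16 libraries (-0.23, adjusted p = 0.0398). Over the 17 the adjusted p ran from 0.0121 to 0.387.

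With JMJD3 loss Hist2h2be fell, at 11.6, 13.7 and 12.5 CPM in JMJD3 cKO TCM and at 21.2, 21.2 and 19.3 CPM in JMJD3 WT TCM (log2 fold change -0.70, SE 0.09, adjusted p = 2.2e-08). The TRAP1 effect minus the JMJD3 effect was 0.65 (SE 0.14, adjusted p = 6.2e-05). JMJD3 WT TCM stood above WT TCM (1.07, SE 0.10, adjusted p = 1.1e-16). Of the abundant H2B genes, Hist1h2bc was called with TCM and Hist2h2be with JMJD3 loss, and a difference between these genes was not tested.

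Hist3h2ba, the H2B gene of the Hist3 cluster, had 0, 0, 1 and 1 counts in TRAP1 KO TCM, 7, 4 and 5 counts in WT TCM and 7, 8 and 7 counts in WT naive. It did not pass the filter in those groups. The ratio of its summed counts, scaled by library totals, was 0.0857 in TRAP1 KO TCM over WT TCM, with an exact 95% interval of 0.00956 to 0.364 that covers counting error only. In the JMJD3 line it was at 0.686, 0.730 and 0.274 CPM in JMJD3 cKO TCM and 0.928, 1.52 and 0.638 CPM in JMJD3 WT TCM (log2 fold change -0.87, 95% interval -1.71 to -0.03, adjusted p = 0.10). It entered the fit of all 16 libraries through the JMJD3 line alone. There the difference between the genotype effects was -2.37 (SE 0.99, adjusted p = 0.0485), a call lost in 14 of 22 alternatives, with adjusted p from 0.0243 to 0.119. Both protein-coding genes of the Hist3 cluster were thus at their lowest in TRAP1 KO TCM.

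Hist1h2bg, which faces Hist1h2ae, was at 0.695 to 1.34 CPM in TRAP1 KO TCM, 0.276 to 1.01 CPM in WT TCM and 1.06 to 1.29 CPM in WT naive. In JMJD3 cKO TCM it was at 0.823 to 1.20 CPM, with a log2 fold change of -0.64 against JMJD3 WT TCM (95% interval -1.31 to 0.04). Its only call in the main fits was in JMJD3 WT TCM against WT TCM (log2 fold change 1.21, SE 0.37, adjusted p = 0.0034). It was at 2.54, 1.39 and 0.83 CPM in JMJD3 WT TCM and at 1.01, 0.276 and 0.760 CPM in WT TCM. The groups overlapped, and the call was lost without JMJD3 WT TCM replicate 1 (adjusted p = 0.178) or without WT TCM replicate 2 (adjusted p = 0.06). Calls were gained in JMJD3 cKO TCM against JMJD3 WT TCM without JMJD3 WT TCM replicate 3 (-0.95, adjusted p = 0.0288) and in WT TCM against WT naive without WT TCM replicate 1 (-1.17, adjusted p = 0.030). The TRAP1 effect minus the JMJD3 effect was called in 8 of 23 alternatives (adjusted p from 0.0113 to 0.370 over all 23), among them the replicate block (1.29, adjusted p = 0.0321).

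Of the 12 H3 genes Hist2h3c2 alone passed the filter. It was at 0.374 to 0.855 CPM in TRAP1 KO TCM, 0.331 to 0.655 in WT TCM, 0.773 to 1.04 in WT naive, 0.886 to 1.37 in JMJD3 cKO TCM and 0.623 to 1.40 in JMJD3 WT TCM. The only call with all libraries was JMJD3 WT TCM against WT TCM (1.10 on the log2 scale, SE 0.41, adjusted p = 0.015). It was lost without JMJD3 WT TCM replicate 1 or 3 or WT TCM replicate 2, with adjusted p of 0.0691, 0.0954 and 0.0971. Without TRAP1 KO TCM replicate 2 it was called lower in TRAP1 KO TCM against WT naive (-0.97, adjusted p = 0.0376). Hist1h3d had 67 counts over all libraries and did not pass the filter. All H3 genes together summed to 0.923 ± 0.301 CPM in TRAP1 KO TCM, 0.874 ± 0.291 in WT TCM, 1.59 ± 0.537 in WT naive, 1.64 ± 0.433 in JMJD3 cKO TCM and 1.59 ± 0.297 in JMJD3 WT TCM.

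Hist1h4i (ENSMUSG00000060639, chromosome 13, 22040636 to 22041362, minus strand), the one abundant H4 gene, was the single member that rose with TRAP1 loss. It was at 3.80, 3.61, 3.42 and 3.88 CPM in TRAP1 KO TCM, at 2.07, 2.59 and 2.60 CPM in WT TCM and at 2.80, 3.18 and 3.67 CPM in WT naive. The TRAP1 KO libraries lay above all WT TCM libraries (log2 fold change 0.62, SE 0.18, adjusted p = 0.0026) and overlapped WT naive (0.20, 95% interval -0.12 to 0.52). WT TCM lay below every naive library, and the test did not pass the threshold (-0.42, SE 0.19, adjusted p = 0.064).

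In the second line Hist1h4i was at 2.96, 2.97 and 2.93 CPM in JMJD3 cKO TCM and 3.65, 3.67 and 3.64 CPM in JMJD3 WT TCM. These libraries did not overlap, and the test, which carries the counting error of 53 to 64 counts per library, was not called (log2 fold change -0.30, 95% interval -0.68 to 0.07, adjusted p = 0.22). The TRAP1 effect minus the JMJD3 effect was 0.92 (SE 0.25, adjusted p = 0.0020). Hist2h4, an H4 gene of the Hist2 cluster, was at 0.190 to 0.347 CPM in TRAP1 KO TCM, 0.253 to 0.386 in WT TCM and 0.188 to 0.597 in WT naive, and at 0.503 to 0.634 CPM in JMJD3 cKO TCM. In JMJD3 WT TCM it was at 0.557, 1.18 and 0.766 CPM, and it passed the filter through the JMJD3 line alone. Hist4h4, the only gene of the Hist4 cluster, had 14 counts in all and was not tested.

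As shares of all histone counts, Hist1h1c took 34.7% in TRAP1 KO TCM, 45.4% in WT TCM and 36.5% in WT naive. Hist1h4i took 6.47%, 3.16% and 3.76% in the same groups, and Hist1h2bc 28.7%, 23.8% and 31.1%. In JMJD3 cKO TCM and JMJD3 WT TCM the share of Hist2h2be was 10.7% and 13.6%, and that of Hist1h2bc 26.4% and 21.7%. The make-up of the histone RNA thus differed between groups beside its amount.

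The same cultures differed in markers of other cells. The 8 neutrophil markers summed to 3.50 to 4.97 CPM in TRAP1 KO TCM, 4.08 to 5.46 in WT TCM and 50.0 to 54.1 in WT naive, and to 38.9 to 40.6 CPM in JMJD3 cKO TCM and 21.1 to 25.0 in JMJD3 WT TCM. All 6 tested fell in WT TCM against WT naive (20.6% of all genes), and 4 of 5 tested rose in JMJD3 cKO TCM (17.3% of all genes). All 6 tested were higher in JMJD3 WT TCM than in WT TCM (30% of all genes). The 7 fibroblast markers summed to 4.92 to 7.39 CPM in TRAP1 KO TCM, 0.317 to 0.496 in WT TCM and 13.8 to 14.7 in WT naive. Of these markers 3 of 3 tested were higher in TRAP1 KO TCM than in WT TCM (21.2% of all genes). They summed to 0.961 to 2.03 CPM in JMJD3 cKO TCM and 0.742 to 1.59 in JMJD3 WT TCM. The 5 dendritic cell markers summed to 0.856 to 1.34 CPM in TRAP1 KO TCM, 0.887 to 1.43 in WT TCM and 1.55 to 2.15 in WT naive. They stood at 3.96 to 5.44 CPM in JMJD3 cKO TCM and 8.04 to 10.5 in JMJD3 WT TCM, the group with the highest histone sum, and 2 of 3 tested were higher and 1 lower there than in WT TCM. The 5 B cell markers summed to 6.10 to 8.03 CPM in JMJD3 cKO TCM and 7.20 to 7.80 in JMJD3 WT TCM, against 2.53 to 5.09 in WT TCM. Of these markers 2 of 2 tested were higher in JMJD3 WT TCM than in WT TCM. In that comparison 30% of all genes were higher and 31.3% lower. No marker on these 4 lists was at 0 in all libraries, and the part of such cells in the histone values was not tested. Of the melanoma markers Tyr and Tyrp1 were at 0.

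Genes of DNA replication and cell division were listed beside the histones. With TRAP1 loss all 14 fell, among them Pcna, the replication clamp, at 172 ± 2.27 CPM in TRAP1 KO TCM and 320 ± 3.76 in WT TCM, and Mki67, a marker of dividing cells, at 30.4 ± 1.20 CPM in TRAP1 KO TCM and 78.3 ± 2.14 in WT TCM. The median log2 fold change of the 14 was -0.53, beside 0.01 over all genes, of which 21% fell and 21.2% rose. The summed histone RNA was lower in TRAP1 KO TCM as well. In WT TCM against WT naive 11 of the 14 rose and 1, Pcna, fell (21.6% and 20.6% of all genes). The histone sum was lower under TCM.

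In the JMJD3 line the histone sum and the division genes ran in opposite directions. In JMJD3 cKO TCM against JMJD3 WT TCM 13 of the 14 rose, beside 17.3% of all genes higher and 17.8% lower. Mki67 was at 36.2 ± 2.93 CPM in JMJD3 cKO TCM and 19.6 ± 1.73 in JMJD3 WT TCM. Top2a, the topoisomerase of dividing cells, was at 36.8 ± 0.385 CPM in JMJD3 cKO TCM and 17.8 ± 0.338 in JMJD3 WT TCM. Pcna was the 1 that fell. In JMJD3 WT TCM against WT TCM 13 fell (median of the 14 -1.52) and Pcna rose, beside 31.3% of all genes lower and 30% higher. There 7 of the 8 histone genes that passed the filter without the JMJD3 line rose. Across the 5 groups the order of the histone sum was thus that of neither Mki67 nor Top2a. Pcna had its lowest level in TRAP1 KO TCM and its highest in JMJD3 WT TCM, as the histone sum had, but WT naive stood above JMJD3 cKO TCM for Pcna and below it for the histone sum.

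**Figure D5:**
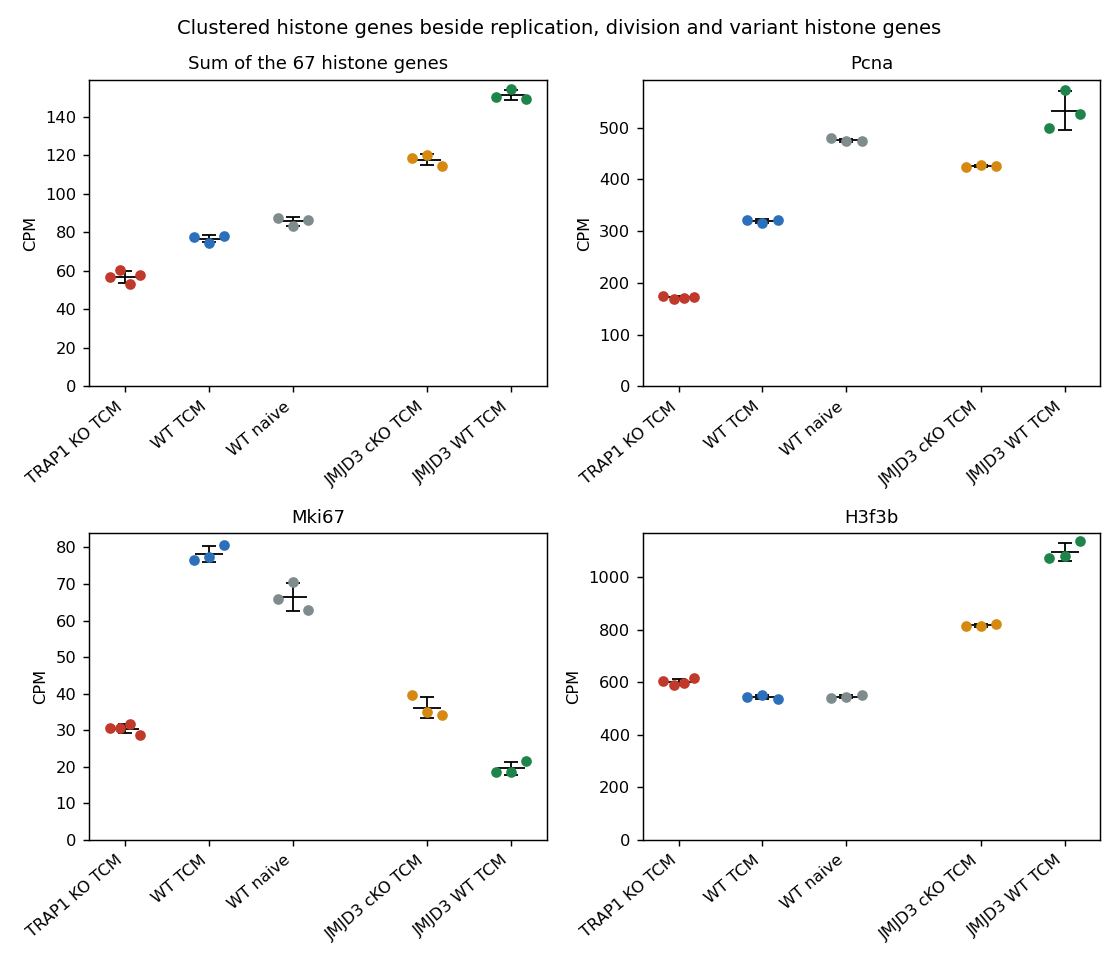
Summed CPM of the 67 histone genes beside Pcna, Mki67 and H3f3b by library (points), with mean and SD per group (bars, n = 4 for TRAP1 KO TCM and 3 for the others). JMJD3 WT TCM has the highest histone sum, 151 CPM, and the lowest Mki67, 19.6 CPM.

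Many histone variant genes outside the clusters are expressed outside S phase and give mRNAs with poly(A) tails. Of 11 listed, 5 stood above every clustered gene per kilobase, while the lowest, H1fx, a linker variant gene, was at 0.405 CPM per kilobase. H3f3b, a gene of the replacement histone H3.3, was at 601 ± 11 CPM in TRAP1 KO TCM, 544 ± 6.67 in WT TCM and 545 ± 5.79 in WT naive, and at 816 ± 5.23 in JMJD3 cKO TCM and 1097 ± 34.4 in JMJD3 WT TCM. H3f3b averaged 240 CPM per kilobase, against 0.806 for the highest clustered H3 gene. The variant H2afz was at 62 CPM per kilobase and the linker variant H1f0 at 42.8, and the other 2 above the clustered genes were H2afj at 48.6 and H3f3a at 42.9.

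Of 11 variant genes 2 rose and 5 fell in TRAP1 KO TCM against WT TCM, beside 21.2% of all genes higher and 21% lower. There H2afx, an H2A form that marks DNA breaks, fell (-0.78, adjusted p = 4.7e-15) and H3f3b rose (0.15, adjusted p = 1.3e-12). In WT TCM against WT naive 8 rose and 0 fell (21.6% and 20.6% of all genes), with H1f0 at 0.40 (adjusted p = 2.1e-15). In JMJD3 cKO TCM against JMJD3 WT TCM 2 of 10 tested rose and 3 fell (17.3% and 17.8% of all genes), with H1f0 at -0.63 (adjusted p = 1.7e-17) and H3f3b at -0.42 (adjusted p = 4.2e-18). H1f0 and Hist1h1c, both linker histones, were lower in JMJD3 cKO TCM, and with TRAP1 loss H1f0 had a log2 fold change of -0.05 (adjusted p = 0.23) where Hist1h1c fell by 0.81.

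Genes of the machinery that cuts and degrades histone mRNA were called in both directions. Of the 21 listed 6 rose and 3 fell in TRAP1 KO TCM against WT TCM, 5 rose and 5 fell in WT TCM against WT naive, and 7 of 20 tested rose and 0 fell in JMJD3 cKO TCM. The counts in the first 2 comparisons lie near the shares of all genes (21.2% higher and 21% lower, and 21.6% and 20.6%), and those of the third stand beside 17.3% and 17.8%. Slbp was at 30.9 ± 1.14 CPM in TRAP1 KO TCM, 36.4 ± 0.549 in WT TCM and 30.1 ± 1.11 in WT naive, lower with TRAP1 loss (log2 fold change -0.23, adjusted p = 0.00029) and higher with TCM (0.28, adjusted p = 2.8e-05). In the JMJD3 line it was at 24.6 ± 1.0 CPM in JMJD3 cKO TCM and 25.5 ± 0.983 in JMJD3 WT TCM (-0.04, adjusted p = 0.68). In JMJD3 WT TCM against WT TCM 12 of the 21 fell and 0 rose, beside 31.3% of all genes lower and 30% higher. Slbp was among the 12 (-0.52, adjusted p = 1.0e-11).

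Npat, which switches on histone genes at the start of S phase, was higher in TRAP1 KO TCM (24.1 ± 1.37 CPM) than in WT TCM (20.7 ± 0.895 CPM, log2 fold change 0.23, adjusted p = 0.0052). Npat did not pass the threshold in JMJD3 cKO TCM against JMJD3 WT TCM (0.06, adjusted p = 0.64). Of its list of 10 genes for histone transcription and entry into S phase, 2 rose and 6 fell with TRAP1 loss, 4 rose and 0 fell with TCM, and 4 rose and 2 fell in JMJD3 cKO TCM. The shares of all genes higher and lower were 21.2% and 21%, 21.6% and 20.6%, and 17.3% and 17.8% in these comparisons. The cyclin gene Ccna2 fell with TRAP1 loss (-1.5) and rose in JMJD3 cKO TCM (0.81).

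Histone chaperones, which carry histones to DNA, fell in 12 of 19 cases and rose in 1 with TRAP1 loss (21% and 21.2% of all genes). The chaperone gene with the smallest p there was Hjurp, which loads the centromere H3 (-1.85, adjusted p = 7.9e-54), followed by Asf1b, a chaperone of H3 and H4 (-0.93, adjusted p = 1.1e-15). In WT TCM against WT naive 6 rose and 3 fell (21.6% and 20.6% of all genes). With JMJD3 loss 7 rose and 3 fell (17.3% and 17.8% of all genes), with Daxx, a chaperone of H3.3, lower (-0.67, adjusted p = 2.1e-22).

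Other RNAs that carry no poly(A) tail were also scarce. Of 11 such genes listed, 1 could be tested, Rn7sk, the RNA that holds the elongation factor P-TEFb, at 1.96 ± 0.294 CPM in TRAP1 KO TCM, 2.45 ± 0.418 in WT TCM and 2.00 ± 0.274 in WT naive, and at 2.23 ± 0.327 in JMJD3 cKO TCM and 2.71 ± 0.253 in JMJD3 WT TCM. It was called in no comparison. Rmrp and Rpph1, the RNAs of the RNase MRP and RNase P enzymes, had 0 counts in every library. The protocol removes ribosomal RNA and names no selection for poly(A) tails, and the part of library making or counting in the low level of these genes and of most histone genes was not tested.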

How the data were processed

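A Ribo-Zero kit depleted ribosomal RNA, a TruSeq Stranded kit gave the libraries and an Illumina HiSeq read them, per the labels' protocols. The authors deposited a count per Ensembl gene for each of 16 libraries, whole numbers used as raw counts. Tools named in the submitters' processing notes are Bowtie2, RSEM, HISAT and StringTie, with the build mm10. The sources used here do not give the counting tool, its strand setting or its handling of shared reads. GENCODE M21 gave symbols for 54495 of 54532 identifiers, and the 37 others held at most 0.0036% of a library.

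Tests used edgeR (4.0.16) under R (4.3.3): TMM scaling, filterByExpr at a minimum of 10 counts, robust quasi-likelihood fits and Benjamini-Hochberg adjustment over all genes. The TRAP1 KO TCM, WT TCM and WT naive libraries shared 1 fit (7 residual degrees of freedom), the JMJD3 line had its own (4), and comparisons across lines used all 16 libraries (11). CPM levels use TMM-scaled totals of all 16 libraries. The SE of a log2 fold change was worked back from the test, as its absolute value divided by the square root of the F statistic. Intervals of log2 fold changes were built from that SE. Intervals are 95% and cover the spread between libraries in a fit, or counting error where so said. The fits were tested on simulated data. Stem-loops were searched in annotated transcripts, and promoter motifs on both strands of RefSeq windows.

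Members named by library were the 2 most abundant of each class, the Hist3 and Hist4 genes that passed the filter, and per comparison the 3 called members with the largest changes each way at a mean of at least 1 CPM. Others were named after their values were seen. The members, gene lists and rules were chosen with earlier results of these data known. Alternatives were DESeq2 (1.42.0), other scalings, filters and sets of libraries, a replicate block, and leaving out each replicate.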

Additional observations from a re-analysis of the deposited data

Results flagged for a closer look

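In TRAP1 KO TCM, replicate 2 stood apart from the other 3 libraries for Hist1h1d, a linker histone gene, at 0.285 CPM against 0.0496 to 0.0539 CPM. These are 6 counts against 1 each. The same replicate had the low value for Hist2h4, an H4 gene, at 0.190 CPM. Of 13 sets of values checked in this way chance flags about 1 in 20, and both genes rest on few counts.

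The effects of TRAP1 loss and of JMJD3 loss differed for 5 of 12 histone genes tested, in edgeR's test of the difference itself. The difference was positive for 2 and negative for 3, which lies near the shares of all genes, 18.4% and 19.5%. TRAP1 loss was the more negative for Hist1h1c, with a difference of -0.43 on the log2 scale (adjusted p = 1.2e-06), for Hist3h2a, with -0.52 (adjusted p = 0.016), and for Hist3h2ba, with -2.37 (adjusted p = 0.0485). Hist3h2ba passed the filter only through the JMJD3 line and had 0 or 1 counts in each TRAP1 KO TCM library, and its call was lost in 14 of 22 alternatives. JMJD3 loss was the more negative for the H2B gene Hist2h2be, with a difference of 0.65 (adjusted p = 6.2e-05). For the H4 gene Hist1h4i the difference was 0.92 (adjusted p = 0.0020). All 4 TRAP1 KO TCM libraries lay above WT TCM and all 3 JMJD3 cKO TCM libraries below JMJD3 WT TCM. The Hist1h4i fall with JMJD3 loss was itself not called, nor in any of 13 alternatives (adjusted p from 0.199 to 0.450).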

How the results depend on the processing

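Outside the fits that leave out a library, 77 of 84 counts of called histone genes stayed within 1.5 times their value, and 360 of 379 values of single genes and summed levels kept their direction and call or their level. In WT TCM against WT naive the rise of 1 gene, Hist1h1c, became 0 with DESeq2, with library totals in place of TMM and with no filter on low counts, and with no filter 2 genes fell in place of 1. In TRAP1 KO TCM against WT naive 5 genes fell in 1 fit of all 16 libraries and 6 with no filter, in place of 3. In JMJD3 WT TCM against WT TCM 1 gene fell with no filter, in place of 0. With no filter 50 to 58 histone genes entered a test.

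Leaving out 1 library at a time gave 0 to 1 genes higher and 1 to 3 lower in WT TCM against WT naive, and 3 to 5 lower in TRAP1 KO TCM against WT naive. The 5 were reached without TRAP1 KO TCM replicate 2, WT naive replicate 1 or WT naive replicate 2. In JMJD3 WT TCM against WT TCM 7 to 9 rose.

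The direction turned for genes that were not called. With library totals Hist1h2bc in JMJD3 cKO TCM against JMJD3 WT TCM was at 0.0052. For Hist2h3c2 the TRAP1 effect minus the JMJD3 effect, -0.0073, was 0.0016 with no filter, 0.00074 with RLE size factors and 0.097 with the replicate number as a block, and ranged from -0.33 to 0.26 over the fits without 1 library. Over such fits Hist2h3c2 ranged from -0.25 to 0.30 in TRAP1 KO TCM against WT TCM and from -0.19 to 0.27 in JMJD3 cKO TCM against JMJD3 WT TCM. Hist1h2ae ranged from -0.36 to 0.61 in TRAP1 KO TCM against WT TCM, from -0.26 to 0.72 in WT TCM against WT naive, from -1.27 to 0.093 in JMJD3 WT TCM against WT TCM and from -0.94 to 0.42 in the difference of effects. Hist2h2be ranged from -0.12 to 0.041 in TRAP1 KO TCM against WT TCM. The cause of these changes was not tested. With library totals the summed histone level was 78.6 CPM in WT TCM, 89.0 in WT naive, 114 in JMJD3 cKO TCM and 138 in JMJD3 WT TCM, in the same order of groups.

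Libraries with the same replicate number did not deviate together (correlations of deviations -0.028 to 0.030 over 30 pairs), so the numbers were not taken as pairs. With a replicate block 4 genes fell in TRAP1 KO TCM against WT naive in place of 3, 3 were higher in the difference of effects in place of 2, and the other counts of histone genes were equal. Depth limits most members, since 26 averaged 1 to 10 counts per library and 25 fewer, and 55 of the 67 were tested in no comparison.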
